A study of Mus musculus with 8 samples.

Results

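In early erythroid progenitors of the mouse fetal liver, 7 genes stood out for a large rise with the synthetic glucocorticoid dexamethasone (DEX): Arhgef3, Gna14, Rasd1, Mst1r, Trnp1, Adamts14 and Tnr. They were chosen by gene name, for that rise on both array slides, out of 19128 genes tested, so the rise itself is given as a description with no test. The array carries 9 probes for them among 39429 probes in all, in 18 spots, because the Mst1r probe is printed 10 times and Trnp1 and Adamts14 have 2 probes each. In the presence of 1 of 2 short hairpin RNAs against an RNA-binding protein, all 7 genes stayed above their level without DEX on both slides, where 38.2% of all genes did so with shRNA1 and 19.5% with shRNA2. That count reuses the arrays without DEX that chose the genes, so nothing is read from it. Relative to control virus with DEX, 5 of the 7 were lower on both slides with shRNA1 and 6 of the 7 with shRNA2, where 26.6% and 25.4% of all genes were. This comparison reuses the control arrays with DEX that chose the genes, so these counts are not independent of the choice. None of the differences from control virus with DEX passed an adjusted p of 0.05. Not all of the 7 are signalling genes: Trnp1 encodes a nuclear protein, and Adamts14 and Tnr encode proteins of the extracellular matrix.

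C57BL/6 embryos at E14.5 gave the fetal livers. The labels state that cells positive for lineage markers, Sca-1, CD16/32, CD41 or CD34 were removed magnetically, and c-kit-positive cells with low CD71 were then sorted. They were infected with a control virus or with a virus encoding a hairpin and cultured for 3 days. Control virus was cultured without and with DEX, and each hairpin virus with DEX, which makes 4 groups of 2 arrays; no hairpin group was cultured without DEX among the samples analysed here. All groups, the controls included, were therefore exposed to a virus, and the share of cells that carried it is not given here. The target of the hairpins has no name in the labels beyond its class; the published study of this design is known to concern Zfp36l2, which binds AU-rich elements and speeds the decay of mRNAs. They do not say whether the arrays of a group came from separate cultures or animals, so every p-value here rests on a spread between arrays that may be technical only.

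Dexamethasone binds the glucocorticoid receptor, a transcription factor that binds DNA at sites built around the hexamer AGAACA and its complement TGTTCT. In erythroid cultures glucocorticoids are known for prolonging the self-renewal of early progenitors and delaying their maturation. The genes described here lie at different steps between the cell surface and the nucleus. Mst1r is a receptor tyrosine kinase. Gna14 is the alpha subunit of a Gq-class G protein, which activates phospholipase C beta. Arhgef3 (XPLN) is an exchange factor that activates RhoA and RhoB and is also known to inhibit the kinase complex mTORC2. Rasd1 (Dexras1) is a Ras-like GTPase first found as a dexamethasone-induced gene and known, with its partner Acbd3, for promoting iron uptake through Slc11a2. Trnp1 is a nuclear protein studied in neural progenitors, Adamts14 is a secreted protease that trims the amino end of procollagens, and Tnr (tenascin-R) is a matrix glycoprotein of the nervous system.

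Mst1r is also known in erythroid biology through a short form, Sf-Stk, made from an internal promoter, which sets the susceptibility of mice to Friend virus. The RefSeq table of promoters (GRCm38.p6) lists 2 starts for Mst1r, 8114 bases apart. Of 10 promoter windows listed for 6 of the genes, each running from 250 bases before a start to 50 after it, 2 held AGAACA on either strand, against 19% of all 32851 windows. AGAACA followed by TGTTCT after a gap of 3 bases was in 0 of the 10 windows and in 3 windows (0.00913%) of the table. The 250 bases before each of the 2 starts are printed because DEX chose these genes, with AGAACA in capitals. The Mst1r window is chr9:107914753-107915002 on the plus strand, at the later of its starts, and the hexamer begins 97 bases before that start. The Arhgef3 window is chr14:27237760-27238009 on the plus strand, at 1 of 4 listed starts, and the hexamer begins 246 bases before it.
Mst1r: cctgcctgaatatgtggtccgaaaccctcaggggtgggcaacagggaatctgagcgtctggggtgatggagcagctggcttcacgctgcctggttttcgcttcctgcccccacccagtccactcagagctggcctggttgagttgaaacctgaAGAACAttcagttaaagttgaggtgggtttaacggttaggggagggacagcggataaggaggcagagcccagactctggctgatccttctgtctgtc
Arhgef3: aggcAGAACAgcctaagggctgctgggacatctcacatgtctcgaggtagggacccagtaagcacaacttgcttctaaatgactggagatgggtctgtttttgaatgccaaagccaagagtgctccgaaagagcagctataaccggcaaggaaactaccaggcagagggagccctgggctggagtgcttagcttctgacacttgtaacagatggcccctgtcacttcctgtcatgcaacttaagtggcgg
A match is only a description of these letters and does not show that a receptor binds there.

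The AU-rich nonamers that Zfp36-family proteins bind hold the core TATTTAT, written as DNA. On the strand of the probe it was in 481 of the 39429 probes (1.22%), and its reverse complement ATAAATA in 1.33%. Of the 9 probes, 2 held TATTTAT and 0 held ATAAATA. Both are shown as windows of 30 bases in mm9 coordinates, with the core in capitals, because the target of the hairpins belongs to that family. The Mst1r window is chr9:107822586-107822615 on the plus strand, and the Adamts14 window is chr10:60659860-60659889 on the minus strand.
Mst1r: tttgtagcatgTATTTATgtaatgtctgtt
Adamts14: ctgatttttaaaacgttaccTATTTATtaa
That a probe lacks these letters says nothing of the rest of the transcript.

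All values below are log2 signals minus the 75th percentile of the array, so a value of 0 equals that percentile. Replicate 1 of every group was on slide 1 and replicate 2 on slide 2. Signals at the 75th percentile ran from 476 to 2061, 59.5% to 62.9% of spots were well above background, and no spot was saturated. Hairpin differences given as log2 values are not centred on all genes, whose median difference was 0.18 with shRNA1 and 0.01 with shRNA2. All 12 erythroid markers tested were well above background on all 8 arrays. Zfp36l2 was at 5.49 ± 0.09 (SD, n = 2) in control virus with DEX, 4.003 ± 0.12 with shRNA1, 3.91 ± 0.30 with shRNA2 and 3.67 ± 0.25 without DEX. All 7 genes were higher with DEX with no overlap between arrays, where 10.4% of all genes were, which the choice of the genes fixes. Under normexp background correction as planned, Rasd1, Mst1r, Adamts14 and Tnr had the other sign with DEX, and once aberrant local background was replaced all 7 were higher again. In bulk RNA, fewer cells of a type and less RNA per cell cannot be told apart.

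**Figure D1:**
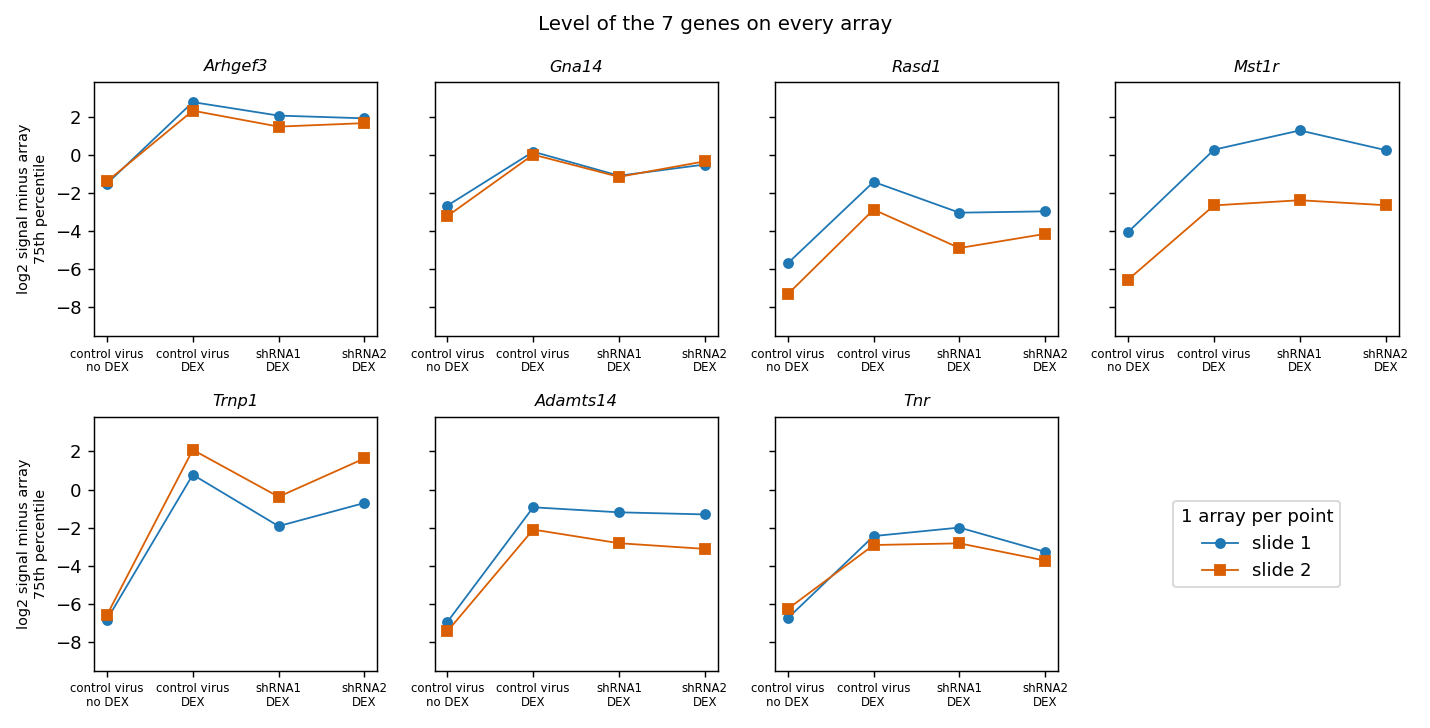
Log2 signal minus the 75th percentile of the array for each of the 7 genes, 1 point per array; lines join arrays of the same slide (circles, slide 1; squares, slide 2) across the 4 groups. All 7 genes are lowest without DEX on both slides, and the slides lie far apart for Mst1r, from 2.50 to 3.66 in the 4 groups.

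Mst1r, the receptor, was at -4.05 and -6.54 without DEX and at 0.27 and -2.66 with DEX (slide 1, then slide 2). With shRNA1 it was at 1.28 and -2.38, and with shRNA2 at 0.24 and -2.65. The slide 1 array was far above the slide 2 array in every group, while the steps between groups ran in parallel on the 2 slides. The rise with DEX was 4.10 ± 1.74 (SE), or 17.2-fold by measured signal, and was 4.32 on slide 1 and 3.89 on slide 2, where the untreated level is not well above background. In the authors' deposited log2 values it was 2.86. With shRNA1 the difference from control virus was 0.64 ± 1.74 (1.01 and 0.27 on the 2 slides; adjusted p = 0.930), and with shRNA2 it was -0.01 ± 1.74 (-0.02 and 0.01; adjusted p = 1.00). The sign with shRNA2 was positive under quantile normalization (0.04) and in the authors' values (0.01), so no direction is drawn. The 95% interval of the shRNA2 difference, -4.23 to 4.21, was wide because the slides differ, and blocking by slide gave -0.78 to 0.76.

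The 10 spots of the Mst1r probe (chr9:107822566-107822625, mm9, plus strand; 9 usable on the shRNA2 array of slide 1) gave the precision within an array. Their SD was 0.055 to 0.13 on 7 arrays and 0.47 on the slide 2 array without DEX, where 2 of 10 spots were well above background. The level of 0.27 on slide 1 and -2.66 on slide 2 in control virus with DEX were thus separated by far more than the spots of either array. The mean difference between slides over the 4 groups was 2.99, and 0.826% of all genes tested had one as large. With 1 probe sequence for the gene, signal of the full-length and the short form cannot be told apart.

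**Figure D2:**
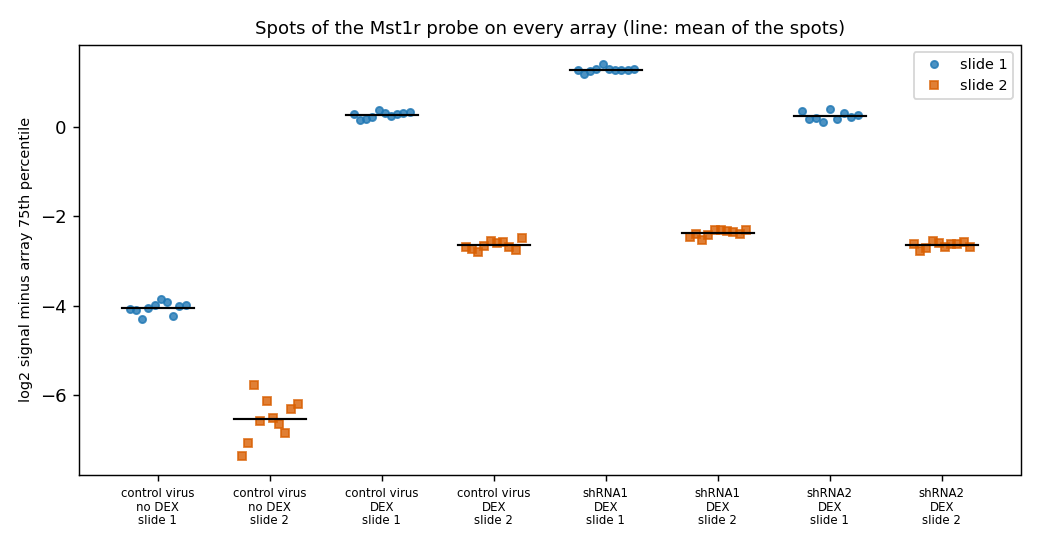
Log2 signal minus the 75th percentile of the array for every usable spot of the Mst1r probe on the 8 arrays; circles are slide 1, squares slide 2 and black lines the mean of the spots. Spots of 1 array lie close together, and the slides differ by 2.99 on average.

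Gna14, the G protein subunit, had close replicates (A_66_P106611, chr19:16685197-16685256, mm9, plus strand). It was at -2.67 and -3.22 without DEX, at 0.16 and 0.01 with DEX, at -1.10 and -1.16 with shRNA1, and at -0.51 and -0.34 with shRNA2. No array of one group overlapped with another group, and both hairpins lay between the controls without and with DEX. The rise with DEX was 3.03 ± 0.31 (SE), or 8.15-fold, the smallest of the 7. The difference with shRNA1 was -1.21 ± 0.31, which is 43.2% of the control level (adjusted p = 0.923; 0.229 in the fit blocked by slide). With shRNA2 it was -0.51 ± 0.31, which is 70.2% of the control level (adjusted p = 1.00; 0.780 with the block). The unadjusted limma p-value with shRNA1 was 0.00746, the lowest of these genes in that fit.

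Arhgef3, the exchange factor (A_55_P2122709, chr14:28216851-28216910, mm9, plus strand), was at -1.51 and -1.40 without DEX and at 2.76 and 2.31 with DEX. It was at 2.06 and 1.48 with shRNA1 and at 1.91 and 1.66 with shRNA2. The hairpin arrays overlapped with each other and lay below both control arrays with DEX. The rise with DEX was 3.99 ± 0.34 (SE), or 15.9-fold. The differences with the hairpins were nearly equal, -0.77 ± 0.34 with shRNA1 (58.5% of the control level) and -0.75 ± 0.34 with shRNA2 (59.4%). Their adjusted p-values were 0.923 and 1.00, or 0.249 and 0.780 in the fit blocked by slide.

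Rasd1, the Ras-like GTPase (A_52_P496726, chr11:59777222-59777281, mm9, minus strand), was at -5.69 and -7.31 without DEX and at -1.42 and -2.88 with DEX. It was at -3.04 and -4.89 with shRNA1 and at -2.97 and -4.15 with shRNA2. Without DEX it was well above background on 1 of 2 arrays. The rise with DEX was 4.35 ± 0.92 (SE), or 20.4-fold by measured signal. It was 4.27 on slide 1, where both signals were well above background, and over both slides in the authors' deposited log2 values it was 2.51. With shRNA1 the level was 32.6% of control on slide 1 and 24.7% on slide 2, and with shRNA2 34.2% and 41.4%. The log2 differences were -1.82 ± 0.92 and -1.41 ± 0.92 (adjusted p = 0.923 and 1.00; 0.229 and 0.780 in the fit blocked by slide). There the SE was 0.23 and the unadjusted p-values 0.000313 and 0.00112, the lowest of the 7 genes with each hairpin.

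Trnp1, the nuclear protein, had the largest measured rise by the smaller of its 2 slides among all genes tested. Its probe A_55_P2123673 (chr4:133047017-133047076, mm9, minus strand) was at -6.82 and -6.58 without DEX, where it was not well above background, and at 0.78 and 2.08 with DEX. It was at -1.92 and -0.38 with shRNA1 and at -0.71 and 1.63 with shRNA2. Without DEX the level is only a bound, so the rise was at least 210.04-fold with control virus, at least 35.1-fold with shRNA1 and at least 107-fold with shRNA2. Such a bound takes, on each untreated array, the higher of the measured signal and the dimmest signal that counts as well above background there. The mean of the bright group is set against the mean of these. A signal not well above background can lie over that dimmest signal, as for Tnr on slide 2 (-6.26 beside -6.55), so the bounds are approximate. With shRNA1 the arrays lay below both control arrays with DEX, at 16.7% of the control level, a log2 difference of -2.58 ± 0.92 (SE; adjusted p = 0.923, and 0.229 in the fit blocked by slide). With shRNA2 the arrays overlapped with control, and the difference was -0.97 ± 0.92 (-1.48 and -0.45 on the 2 slides; adjusted p = 1.00). Without the slide 1 array of shRNA2 the sign turned, to 0.20. That value sets slide 2 alone against both control slides, and Trnp1 was lower on slide 1 (mean slide 1 minus slide 2, -1.35). No direction is read from it.

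The second Trnp1 probe, A_55_P1990373, starts 506 bases away on the same strand (chr4:133047523-133047582). It was at -6.33 and -6.50 without DEX, again not well above background, at -1.38 and -0.13 with DEX, at -4.31 and -2.63 with shRNA1 and at -3.05 and -0.40 with shRNA2. Its pattern was the same in each step. The difference with shRNA1 was -2.71 ± 1.00 (SE), next to -2.58 for the first probe, and both probes gave -0.97 with shRNA2. The rise was at least 45.4-fold with control virus, 6.94-fold with shRNA1 and 23.2-fold with shRNA2.

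Adamts14, the procollagen protease, was well above background in every group with DEX through 1 of its 2 probes. The probe A_55_P1978316 (chr10:60659860-60659919, mm9, minus strand) was at -6.94 and -7.44 without DEX, not well above background, and at -0.93 and -2.10 with DEX. It was at -1.20 and -2.82 with shRNA1 and at -1.31 and -3.11 with shRNA2. All 3 groups with DEX overlapped, and the slide 1 array was the higher in each. The rise was at least 27.3-fold with control virus, 19.4-fold with shRNA1 and 16.9-fold with shRNA2. The differences from control virus with DEX were -0.49 ± 0.82 (SE) and -0.69 ± 0.82 (adjusted p = 0.923 and 1.00). The other probe, A_52_P156763 (chr10:60668150-60668209), starts 8290 bases away and failed the filter on dim probes. It was at -6.28 and -8.60 without DEX, -5.98 and -6.76 with DEX, -5.78 and -6.74 with shRNA1 and -6.07 and -7.74 with shRNA2, and no fold is given for it. It was well above background on 1 of 2 arrays of control virus with DEX and on neither array without DEX, and its shRNA1 difference had the other sign (0.11).

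**Figure D3:**
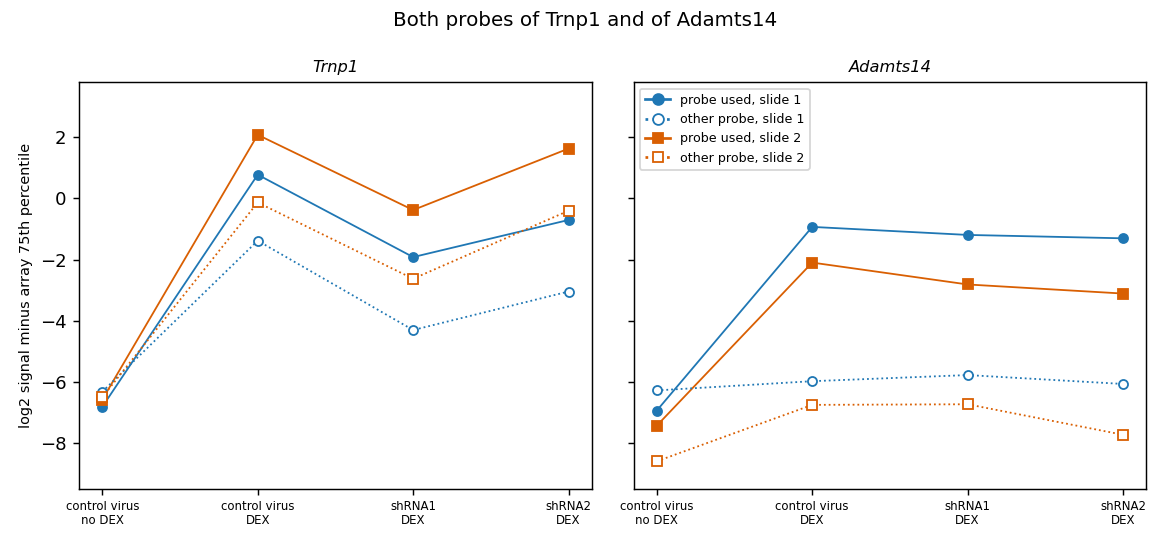
Log2 signal minus the 75th percentile of the array for both probes of Trnp1 and of Adamts14 across the 4 groups; filled symbols and solid lines are the probe used for the gene, open symbols and dotted lines the other probe, circles slide 1 and squares slide 2. The Trnp1 probes move in parallel (shRNA1 differences of -2.58 and -2.71), while the other Adamts14 probe stays at or under -5.78.

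Tnr, the matrix glycoprotein (A_55_P1974957, chr1:161854449-161854508, mm9, plus strand), was at -6.75 and -6.26 without DEX, not well above background, and at -2.44 and -2.91 with DEX. It was at -1.996 and -2.82 with shRNA1 and at -3.27 and -3.72 with shRNA2. The shRNA1 arrays overlapped with control virus with DEX, and the shRNA2 arrays lay below both. The rise was at least 11.1-fold with control virus, 13.3-fold with shRNA1 and 6.26-fold with shRNA2. The difference was 0.27 ± 0.42 (SE; adjusted p = 0.923) with shRNA1, which became -0.13 when arrays were scaled to their median, and -0.82 ± 0.42 (adjusted p = 1.00) with shRNA2. On the 2 slides it was 0.45 and 0.09 with shRNA1 and -0.83 and -0.81 with shRNA2.

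Against control virus with DEX, the comparison with each hairpin shares its control arrays with the comparison that chose the genes, so the rise and the difference are not independent. With shRNA1, 4 of the 7 genes (Arhgef3, Gna14, Rasd1 and Trnp1) were lower with no overlap between arrays, against 7.56% of all genes. With shRNA2, 4 of the 7 (Arhgef3, Gna14, Rasd1 and Tnr) were lower with no overlap, against 8.19% of all genes. The genes lower on both slides were 26.6% of all genes with shRNA1 and 25.4% with shRNA2. Mst1r and Tnr were the 2 genes higher on both slides with shRNA1, where 49.3% of all genes were. The median log2 difference of the 7 was -0.77 with shRNA1 and -0.75 with shRNA2. Arrays scaled to their median gave -1.17 and -0.999, with the median over all genes at -0.22 and -0.23.

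None of the 7 genes passed the adjusted threshold in limma with either hairpin, and neither did any of the 19128 genes tested (0%). At an unadjusted p under 0.05, 2 of the 7 passed with shRNA1 (Gna14 and Trnp1) and 0 with shRNA2, against 400 (2.09%) and 240 (1.25%) of all genes. In the fit blocked by slide, 4 of the 7 passed unadjusted with shRNA1 (Arhgef3, Gna14, Rasd1 and Trnp1) and 2 with shRNA2 (Arhgef3 and Rasd1), all lower, where 4.45% and 2.88% of all genes did so on the lower side. Their adjusted p-values in the blocked fit were 0.229 to 0.249 with shRNA1 and 0.780 with shRNA2. The blocked fit called 44 genes (0.23%) with DEX, among them all 7 of these genes, which were chosen on that contrast, so nothing is read from it. It called 0 with shRNA1 and 1 (0.00523%) with shRNA2, a probe named only by the transcript ENSMUST00000055343.

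**Figure D4:**
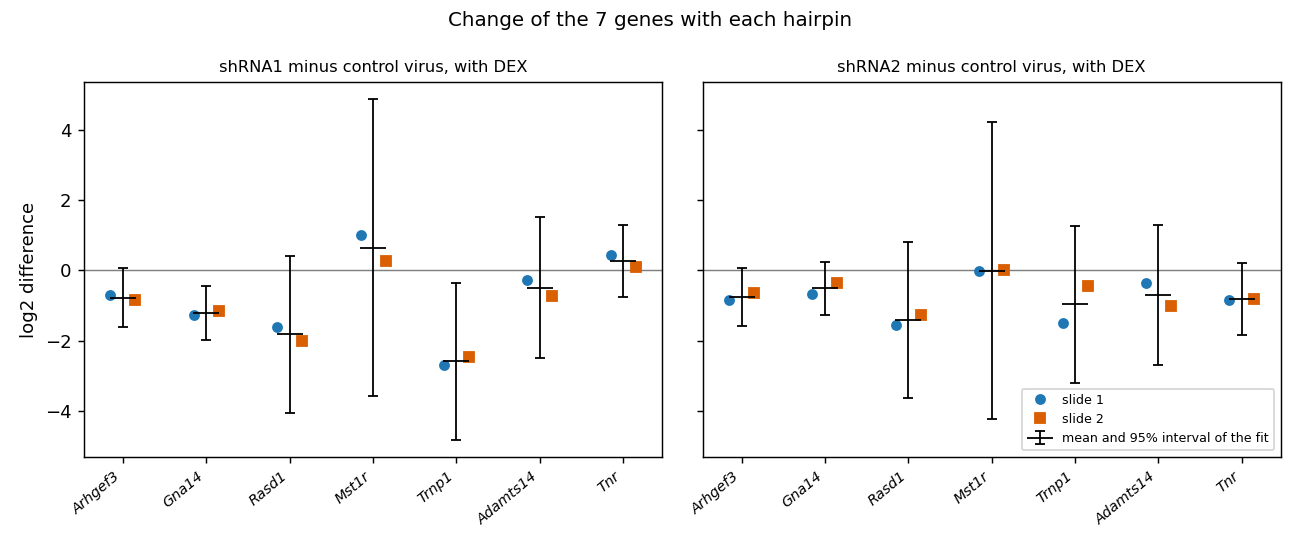
Log2 difference from control virus with DEX for the 7 genes with shRNA1 (left) and shRNA2 (right); circles are slide 1, squares slide 2, and black bars the mean with the 95% interval of the limma fit without a slide block. For Mst1r with shRNA2 the slides lie close together (-0.02 and 0.01) although the interval is wide, since the interval includes the difference in level between slides.

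The comparison of the hairpins with each other uses none of the arrays that chose the genes. With shRNA1, Gna14 was lower than with shRNA2 (-0.70 ± 0.31, SE) with no overlap, as were 4.57% of all genes, and Tnr was higher (1.09 ± 0.42) with no overlap, as were 12.3%. Trnp1 was lower on both slides (-1.61 ± 0.92; -1.21 and -2.01) but its arrays overlapped. Arhgef3 differed by -0.02 with a 95% interval of -0.85 to 0.81, so a difference up to that size in either direction is compatible with the data. The others were -0.41 for Rasd1 (-0.07 and -0.74 on the 2 slides), 0.65 for Mst1r (1.03 and 0.26) and 0.20 for Adamts14 (0.11 and 0.30), each with 1 sign on both slides. Each was smaller than its SE in the fit without the block, while the SE in the blocked fit was 0.23, 0.31 and 0.35 (unadjusted p = 0.129, 0.0835 and 0.584). None passed the adjusted threshold (adjusted p = 1.00 for each), and in the fit blocked by slide the adjusted p-values ran from 0.382 for Trnp1 and 0.391 for Tnr to 0.982 for Arhgef3. Before adjustment the blocked p-values were 0.0178 for Trnp1, 0.0209 for Tnr and 0.0264 for Gna14, where 11% of all genes were under 0.05.

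The level kept with a hairpin can be given as the share of the log2 rise that remained above control virus without DEX, where 100% is the level with DEX and control virus. With shRNA1 it was 58.3% for Rasd1, 59.9% for Gna14, 68.3% for Trnp1, 80.7% for Arhgef3, 91.4% for Adamts14, 107% for Tnr and 116% for Mst1r. With shRNA2 it was 67.6% for Rasd1, 78.5% for Tnr, 81.2% for Arhgef3, 83.1% for Gna14, 87.8% for Adamts14, 88.1% for Trnp1 and 99.8% for Mst1r. Over the mean of the slides Rasd1 kept the smallest share with both hairpins, but on slide 1 with shRNA1 Gna14 kept less (55.5%, beside 62.1% for Rasd1). With arrays scaled to their median, Gna14 also kept less than Rasd1 with shRNA1 (48.4% beside 50.2%). Mst1r kept the largest share on each slide with both hairpins. In the authors' deposited log2 values Rasd1 kept 37.5% with shRNA1 and 49.4% with shRNA2. For Trnp1, Adamts14 and Tnr the untreated level is a bound, and only the slide 1 array without DEX had Mst1r or Rasd1 clearly over background, so the shares of these 5 genes rest at least in part on signals not well above background.

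The same share was taken over all 321 genes (1.68% of those tested) that rose at least 2-fold with DEX on both slides. Their median was 82.6% with shRNA1 (quartiles 58.6% and 107%) and 81.7% with shRNA2 (62.2% and 97.2%). The median of the 7 genes was 80.7% and 83.1%, close to those values. With shRNA1, 24.0% of the 321 genes kept less than Rasd1, 27.1% less than Gna14 and 82.6% less than Mst1r. With shRNA1 Rasd1 lay just under the lower quartile and Tnr and Mst1r over the upper quartile, Tnr only just. With shRNA2 Mst1r lay over the upper quartile, and the rest of the 7 genes lay between the quartiles. Over the 321 genes the difference from control virus had a median of -0.39 with shRNA1 and -0.40 with shRNA2. The 321 genes, like the 7, were chosen for their rise on the control arrays from which these shares and differences are taken. Such a choice by itself tends to give shares short of the full rise and differences below control virus. The medians of the shares and differences are therefore not read as an effect of a hairpin.

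**Figure D5:**
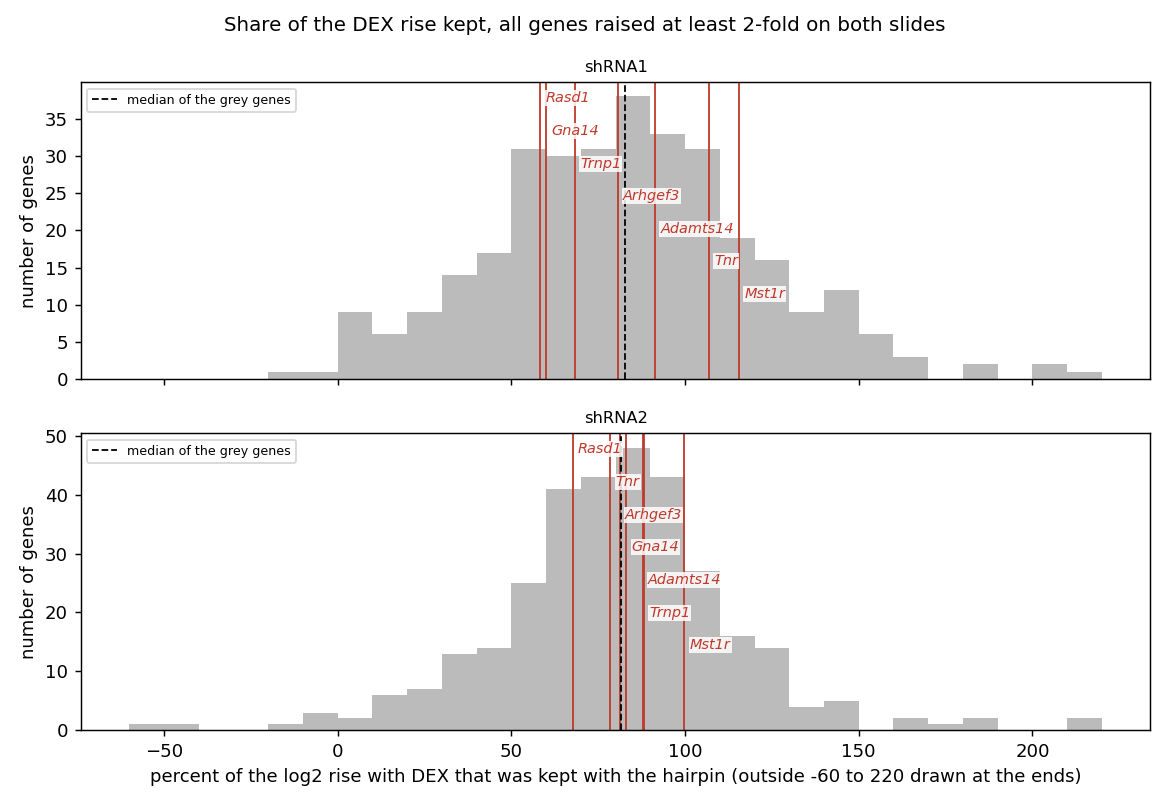
Percent of the log2 rise with DEX that was kept with shRNA1 (top) and shRNA2 (bottom) for the 321 genes raised at least 2-fold on both slides (grey, number of genes per bin of the histogram), with the 7 genes as red lines and the median of the 321 genes dashed. The 7 genes run from 58.3% to 116% with shRNA1 and from 67.6% to 99.8% with shRNA2, around the medians of 82.6% and 81.7%. All these genes were chosen on the control arrays that also enter the shares, so the medians are not read as an effect of a hairpin.

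By the smaller of the rises on the 2 slides, taken from measured signals also where the untreated signal was not well above background, the 7 genes ranked 1 (Trnp1, 7.60), 3 (Adamts14, 5.34), 8 (Rasd1, 4.27), 14 (Mst1r, 3.89), 17 (Arhgef3, 3.71), 21 (Tnr, 3.35) and 41 (Gna14, 2.83) of all genes tested. They are thus not the 7 largest rises: 34 other genes ranked above Gna14. The highest of those were the matrix metalloprotease Mmp2 (rank 2, 5.93), Fetub (rank 4, 5.33), Dnah2 (rank 5, 5.23), 0610040J01Rik (rank 6, 4.68) and the unnamed probe A_55_P2091193 (rank 7, 4.38). The bound for Adamts14 in control virus, at least 4.77 on the log2 scale, is below the measured rises of Fetub and Dnah2, so its rank is not settled. Just above Gna14 lay Sema3e and Anxa2 (2.84 and 2.83), and just below it Clca3a1 and Il1rl1 (2.82 and 2.79).

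The slides differed for some of the 7 genes in the same way in all 4 groups. The mean of slide 1 minus slide 2 was 2.99 for Mst1r, 1.53 for Rasd1, 1.27 for Adamts14 and -1.35 for Trnp1. For Arhgef3 (0.29), Gna14 (0.15) and Tnr (0.32) it was under the median size over all genes, 0.60. A mean difference as large as that of Rasd1 was found in 9.35% of genes, and for Trnp1 and Adamts14 in 12.7% and 14.7%. Trnp1 alone among these 4 was higher on slide 2. What differs between the slides besides the scan is not given in the labels, and its part in the levels was not tested.

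The closest relatives and partners of the 7 genes, from lists of their families and pathways, did not pass the threshold. Of 217 listed relatives 155 were tested, and 0 were called in the fit with or without the slide block in any of the comparisons with DEX, with a hairpin or between hairpins. Of all genes, 0% were called without the block in each comparison. With the block it was 0.23% with DEX and at most 0.00523% in the others, so nothing is read from that count. The median of the 155 was -0.07 with DEX, next to -0.08 over all genes. With DEX, 5 (3.23%) were at least 2-fold higher on both slides, where 1.68% of all genes were, and 7 were at least 2-fold lower, where 2.05% of all genes were. The largest difference was that of Bmp1, the procollagen C-proteinase (2.57; adjusted p = 0.712, named after its value was seen). It lay below the smallest rise of the 7 genes, 3.03.

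Among the direct relatives, the other Gq-class subunits gave log2 differences with DEX of -1.17 (Gnaq), -0.20 (Gna11) and 0.49 (Gna15), beside 3.03 for Gna14. The GTPases that Arhgef3 acts on gave -0.31 (Rhoa) and -0.61 (Rhob). Rasd2, the paralogue of Rasd1, gave -0.48, Acbd3 0.15 and Slc11a2, the iron transporter of that route, -0.35. Met, the paralogue of Mst1r, gave -0.24, and Mst1, the ligand of Mst1r, -0.24. Adamts3 gave 0.29, Tnxb 0.14 and Tmf1, the protein after which Trnp1 is named, -0.02; Adamts2 and Tnc failed the filter on dim probes. With shRNA1 the ligand Mst1 gave 1.39 (1.38 and 1.41 on the 2 slides; adjusted p = 0.923, and 0.229 in the fit blocked by slide), and with shRNA2 0.33. The receptor Mst1r, as given above, differed by 0.64 and -0.01.

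Markers of other cell types differed between the groups, with no list member called by a hairpin. Summed signals of marker lists are given in multiples of the 75th percentile of the array, slide 1 before slide 2. Granulocyte markers (11 of 12 tested, all well above background on all arrays) summed to 39.997 and 177 without DEX, 36.4 and 64.6 with DEX, 129.9 and 142 with shRNA1, and 533 and 88.2 with shRNA2. All 11 were higher on both slides with each hairpin. With shRNA1 49.3% of all genes were, and that share was not taken for shRNA2. Monocyte and macrophage markers (8 of 15 tested) summed to 4.24 and 6.998, 3.38 and 1.79, 10.09 and 4.73, and 20.3 and 2.63, while Cd163, Vcam1, Timd4, Fcgr1, C1qa, C1qc and Mrc1 failed the filter. Megakaryocyte markers (10 of 10) summed to 50.9 and 70.7, 28.1 and 16.1, 79.2 and 20.8, and 194 and 12.7.

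Mast cell and basophil markers (7 of 11 tested) summed to 6.25 and 11.4 without DEX, 44.6 and 17.1 with DEX, 40.4 and 12.1 with shRNA1, and 35.2 and 15.1 with shRNA2, so this sum was higher in every group with DEX, although the median of the list was 1.12 below that of all genes. Hepatocyte markers (7 of 12) summed to 1.37 and 1.39, 2.89 and 1.68, 2.57 and 1.61, and 2.30 and 1.58, with Alb, Ttr, Apob, Fgb and Fga failing the filter. With DEX the median of that list was 0.80 above that of all genes, and 5 of 7 were higher on both slides. The shares of all genes higher or lower on both slides with DEX were not taken, so such counts with DEX stand without a background. For Trnp1 and Tnr, known from the nervous system, neural and glial markers are of interest: 6 of 12 were tested, Sox2, Olig1, Olig2, Map2, Rbfox3 and S100b failed the filter, and the sum was 12.9 and 9.65 without DEX, 19.7 and 13.5 with DEX, 23.2 and 10.6 with shRNA1, and 23.5 and 12.8 with shRNA2. With DEX 4 of these 6 were lower on both slides and 1 higher, and the median of the list minus that of all genes was -0.46. The mast cell, hepatocyte and neural sums were thus lowest without DEX on both slides, but a sum follows its brightest genes. With DEX 5 of the 7 mast cell and basophil markers tested were lower on both slides and 1 higher. For Adamts14, a gene of collagen-making cells, 5 of 11 stromal markers were tested, Col1a1, Col3a1, Lum, Pdgfra, Des and Postn failed the filter, and the sum was 1.19 and 0.94 without DEX and 1.43 and 1.37 with DEX, 1.36 and 1.09 with shRNA1, and 1.34 and 0.82 with shRNA2. Of that list, Pdgfrb rose with DEX in the fit blocked by slide (log2 difference 2.02; adjusted p = 0.0438), as did Cd48 of the early progenitor list (2.38; adjusted p = 0.0399). Erythroid markers (12 of 13 tested) summed to 1211 and 677 without DEX, 874 and 453 with DEX, 1778 and 711 with shRNA1, and 1230.5 and 464 with shRNA2, with 11 of 12 lower on both slides with DEX. All 12 were higher on both slides with shRNA1, where 49.3% of all genes were, while with shRNA2 3 were higher and 3 lower. Early progenitor markers (6 of 7 tested) had a median 0.49 above that of all genes with DEX and 0.74 below it with shRNA1 (5 of 6 lower on both slides); with shRNA2 it was 0.20 below it (1 of 6 lower on both slides). The part of these cell types in the levels of the 7 genes was not tested. Endothelial and lymphoid markers (4 of 8 and 3 of 9 tested) summed to at most 7.20 and 1.93 on any array.

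As a description over the 8 arrays, which share slides and groups, the genes most like each of the 7 by Pearson correlation were as follows. Arhgef3 was nearest to Nrgn (0.98), Fetub (0.98) and Adamts14 (0.98), and Gna14 to Nrgn (0.97), Gask1b (0.96) and Cd55b (0.96). Rasd1 was nearest to Gask1b (0.98), S1pr4 (0.97) and Anxa2 (0.97). Adamts14 was nearest to Fetub (0.99), Acod1 (0.98) and 4930550L24Rik (0.98), and Tnr to A930033H14Rik (0.99), 5330421C15Rik (0.97) and Mmp2 (0.97). The genes nearest to Mst1r (Pkd1l3, Pgap2 and Ssh2, each 0.99) and to Trnp1 (Tcaf1, 0.99; Nt5c2, 0.98; Camk1d, 0.97) share the difference between slides as well as that between groups. Among the 7 genes the correlations ran from 0.55 for Mst1r with Trnp1, which differ between slides in opposite directions, to 0.98 for Arhgef3 with Adamts14.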

How the data were processed

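Total RNA of 8 samples was hybridised to 1-colour Agilent arrays. Quantification was by the authors with Feature Extraction 10.1.1.1, per the file headers, and limma is also listed in the submitters' processing notes, with no version. The deposited processed signal of a spot is an intensity on a linear scale, background-corrected by the authors. The authors' deposited log2 values, made by steps that no source used here gives, ranked probes as the scanner signals do (Spearman 1.00 on each array) and served as an alternative.

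Control spots and outlier spots were left out, spots of a probe were averaged, and log2 of the processed signal minus the array's 75th percentile was taken. A probe was tested (23844 were) if some group had it well above background on each of its arrays, with 1 probe per gene (the highest mean over all arrays). Symbols came from RefSeq accessions for 26581 probes and from the files for 12848. limma 3.58.1 (R 4.3.3; lmFit, eBayes, Benjamini-Hochberg) was fitted to all 8 arrays and 19128 genes, with 4 residual degrees of freedom; the script was tested on simulated data. The replicate number equals the slide, as read from the names of the scanner files. Deviations of same-numbered arrays correlated at 0.43 to 0.86 over the pairs of groups, so the numbers pair the arrays. A fit blocked by slide stands beside the first. The 95% intervals come from the fit, and the small number of arrays limits the precision.

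The genes and all lists were chosen with earlier results of these data known. Named were the 7 genes with every probe, listed relatives past the threshold and their direct paralogues or partners, the 3 nearest genes by correlation, and the 5 highest non-members by rise. Alternatives were quantile normalization, scaling to the array median, normexp background correction with an offset of 50 on the local background (as it stands, and with local background above the 99.9th percentile of an array set to its median), the authors' log2 values, other filters on dim probes, the other probe of a gene, and leaving out each array. Exon and UTR positions are not stated, as no mm9 annotation was used here.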

Additional observations from a re-analysis of the deposited data

Results flagged for a closer look

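Tnr differed between the hairpins in a way that no other of the 7 genes did: relative to control virus with DEX it was higher on both slides with shRNA1 (0.45 and 0.09 on the log2 scale) and lower on both with shRNA2 (-0.83 and -0.81). The difference between the hairpins was 1.09 ± 0.42 (SE, limma; adjusted p = 1.00, and 0.391 in the fit blocked by slide), so it did not pass the threshold.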

How the results depend on the processing

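With the replicate block (slide), 44 genes were called with DEX and 1 with shRNA2, against 0 without it, as the block takes the difference between slides out of the spread; all 7 genes are among the 44. In the comparisons of a hairpin with control virus, both with DEX, or between hairpins, none of the 7 genes was called under any alternative that gives a test (adjusted p 0.163 to 1.00), and the block changed no other call. Planned normexp correction used the local background as it stands, which reached 771626 on 1 array against a median of 29 there. The median of the 7 genes then became -0.40 with DEX (4.10 in the report), 0.20 with shRNA1, 1.03 with shRNA2, -0.69 between the hairpins, and 0.089 and 0.58 for shRNA1 and shRNA2 against no DEX. Signs turned with it for Rasd1 (-0.79 with DEX, 0.20 with shRNA1, 1.28 with shRNA2, -0.59 for shRNA1 against no DEX), Adamts14 (-0.49, 0.28, 1.03 and -0.20, and -0.75 between hairpins), Tnr (-0.96 with DEX, 1.44 with shRNA2, -0.35 for shRNA1 against no DEX, -0.82 between hairpins), Mst1r (-0.40 with DEX, 1.11 with shRNA2, -0.0081 between hairpins) and Arhgef3 (0.73 between hairpins). With aberrant local background replaced, the medians were 2.66 with DEX, -0.50 with shRNA2, and 2.41 and 2.21 for shRNA1 and shRNA2 against no DEX, and no sign turned. The authors' values gave 2.86 with DEX, and 2.63 and 2.52 against no DEX. Scaling to the array median gave -1.17 with shRNA1 and -0.999 with shRNA2. The other signs that turned were Mst1r with shRNA2 (0.038 under quantile normalization, 0.0080 in the authors' values), Adamts14 with shRNA1 (0.11, other probe) and Tnr with shRNA1 (-0.13, median scaling). The cause was not tested.

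Whether the calls of the blocked fit hold with 1 array left out is not given here. Leaving out 1 array, in the fit without the slide block, compares unequal sets of slides, so the difference between slides stays in these values. It left 0 genes called in each comparison, and the medians ran from 3.63 to 5.16 with DEX, -1.24 to -0.48 with shRNA1, -1.06 to -0.53 with shRNA2, -0.73 to 0.52 between hairpins, 2.93 to 4.51 for shRNA1 against no DEX and 2.78 to 3.75 for shRNA2 against no DEX. Signs turned within these ranges: Mst1r with shRNA1 (-1.19 to 2.47, negative without control DEX replicate 2 or shRNA1 replicate 1), with shRNA2 (-1.47 to 1.45, positive without control DEX replicate 1 or shRNA2 replicate 2) and between hairpins (-1.18 to 2.48, negative without shRNA1 replicate 1 or shRNA2 replicate 2); Adamts14 with shRNA1 (-1.30 to 0.32, positive without control DEX replicate 1 or shRNA1 replicate 2), with shRNA2 (-1.60 to 0.21, positive without shRNA2 replicate 2) and between hairpins (-0.70 to 1.11, negative without shRNA1 replicate 1 or shRNA2 replicate 2). Trnp1 with shRNA2 ran from -2.14 to 0.20 (positive without shRNA2 replicate 1) and Tnr with shRNA1 from -0.15 to 0.68 (negative without shRNA1 replicate 1). Between hairpins, Arhgef3 ran from -0.31 to 0.27 and Rasd1 from -1.33 to 0.52, both positive without shRNA1 replicate 2 or shRNA2 replicate 1. Only Arhgef3 and Gna14 were well above background on all arrays, so that filter gives no median of the 7. Signal over background limits Trnp1, Adamts14 and Tnr without DEX to bounds, and Rasd1 and Mst1r to 1 measured array there.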
